A study of Arabidopsis thaliana with 18 samples.

Results

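Aliphatic glucosinolate synthesis was followed through 7 genes, 1 probe set each. They were chosen by name from the 22810 probe sets of the array, with earlier results of these data known. They were the chain elongation genes BCAT4 (AT3G19710, 257021_at) and MAM1 (AT5G23010, 249866_at), the core structure genes CYP79F1 (AT1G16410, 262717_s_at), CYP83A1 (AT4G13770, 254687_at), UGT74B1 (AT1G24100, 264873_at) and UGT74C1 (AT2G31790, 263477_at), and the transcription factor MYB28 (AT5G61420, 247549_at). All 7 passed the filter on dim signals and were tested. RNA came from Arabidopsis thaliana plants of the natural accession Kin-0 on 18 ATH1 arrays, a GeneChip for this species. Treatment was with salicylic acid (SA), a defence hormone, at 0.30 mM in 0.02% silwet, a surfactant, or with 0.02% silwet alone, so that every group had silwet and silwet alone is the background for SA. Sampling at 4, 28 and 52 h after treatment gave 6 groups of 3 biological replicates, and the series asks how this accession responds to SA over time. The labels give neither tissue nor plant age, and untreated plants were not analysed here.

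Aliphatic glucosinolates are sulphur-rich defence compounds that plants of the cabbage family make from methionine, and their breakdown products deter insects and microbes. Chain elongation enzymes first lengthen methionine, core enzymes then turn the product into a glucosinolate through an aldoxime, and transcription factors of the MYB family switch these genes on together. Glucosinolate transporters carry the products between tissues, and oxygenases modify their side chains.

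The values are signals on a linear scale as deposited, and each array had been scaled to a common level. A signal depends on its own probes, so it is compared between arrays and not between genes. Array median signals lay between 26.7 and 35.6, and the level below which a signal counted as dim (the 40th percentile of its array) lay between 16.0 and 20.7. The log2 ratio of 3' to 5' control probe signals, a measure of RNA integrity, ranged from 1.18 to 2.65 and was highest on SA 4 h replicate 2. Of 24 marker genes of myrosin and guard cells, vascular tissue, mesophyll, root, flower and seed, 3 were named in the platform annotation and tested. That annotation lists 14016 of the 22810 probe sets, so a gene it does not name may still have a probe set. The mesophyll marker RCA had signals from 1343 to 4055, and no root, flower or seed marker was named, so the tissue could not be checked further. The 3 arrays of a group limit the precision of every value here. The labels call the replicates biological and do not say what same-numbered arrays shared.

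At 4 h all 7 genes had lower mean signals after SA than after silwet alone, and for each of them SA at 4 h was the lowest of the 6 groups. UGT74C1 and MYB28 fell, to 26.8% and 41.6% of the silwet level. The other 5 stood at 39.8% to 68.7% and did not pass the test. By 28 and 52 h no gene passed, and signals in the SA groups overlapped those in the silwet groups. The test was limma's across all 15212 probe sets that passed the filter, and a gene was called at an adjusted p under 0.05. In a bulk sample, fewer cells of a type and less RNA per cell cannot be told apart.

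**Figure D1:**
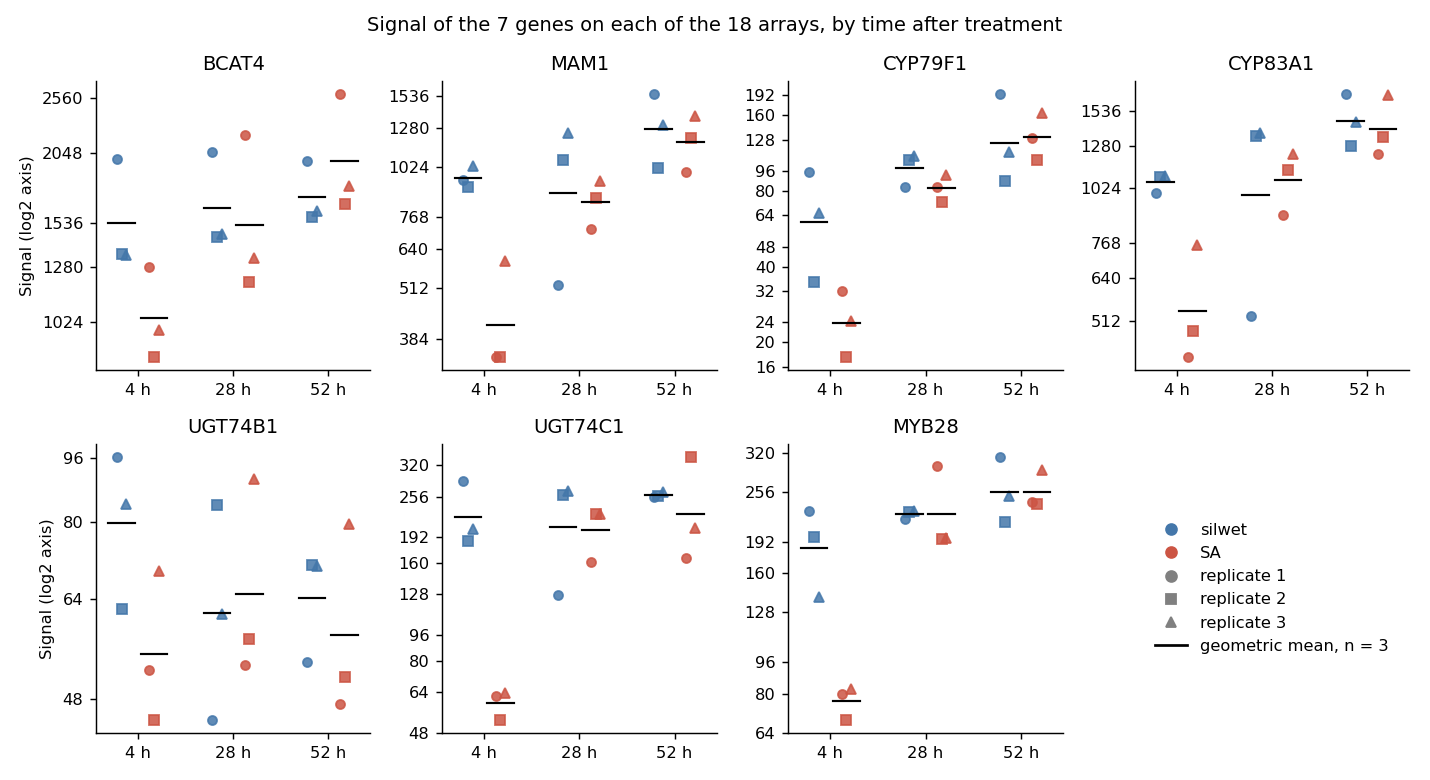
Signals of the 7 genes on a log2 axis, with 1 point per array, silwet in blue, SA in red, the marker shape for the replicate number and a bar at the geometric mean of 3 arrays. At 4 h the SA points lie below all silwet points for every gene except UGT74B1, and at 28 and 52 h the points of both treatments overlap.

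BCAT4, an aminotransferase that takes methionine into chain elongation, had signals of 1994, 1353 and 1348 on silwet replicates 1, 2 and 3 at 4 h. After SA they were 1284, 886 and 991. The groups did not overlap, although the highest SA array stood close to the lowest silwet arrays. The difference was a log2 change of -0.56 ± 0.25 (SE, n = 3 against 3), or 67.7% of silwet, and was not called (limma adjusted p = 0.356). At 28 h the silwet arrays read 2051, 1447 and 1470.1 and the SA arrays 2203, 1203 and 1331. At 52 h they read 1977, 1570.3 and 1610.1 after silwet and 2602, 1659.5 and 1788 after SA. Replicate 1 was the highest array of its group in all 6 groups.

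MAM1, the synthase that condenses the next intermediate with acetyl-CoA, read 954, 916 and 1028 after silwet at 4 h. The SA arrays read 347, 346 and 599, all below every silwet array, with replicate 3 higher than the other two. The log2 change was -1.21 ± 0.29, or 43.1% of silwet, and missed the threshold (adjusted p = 0.0645). At 28 h the silwet signals were 522, 1064 and 1241 and the SA signals 719.6, 860.3 and 946. The low silwet array, replicate 1, fell below all 3 SA arrays. By 52 h the silwet signals were 1553, 1020.4 and 1299 and the SA signals 997, 1212 and 1373, and the groups overlapped.

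CYP79F1 is the cytochrome P450 that converts elongated methionine to an aldoxime. Its signals at 4 h after SA were 32.0, 17.5 and 24.3, and 1 of these 3 arrays lay under its own filter level. The silwet arrays at 4 h read 95.1, 34.6 and 65.6, so the groups did not overlap but the closest arrays differed little. The log2 change was -1.33 ± 0.36, or 39.8% of silwet, and was not called (adjusted p = 0.0963). Signals at 28 h were 82.6, 106.5 and 110.1 after silwet and 82.7, 72.2 and 92.6 after SA. At 52 h they were 194, 87.3 and 114 after silwet and 129.9, 106.6 and 163.6 after SA, with wide overlap. The suffix of this probe set marks probes shared by similar transcripts, and CYP79F2, a close copy, is its neighbour in the gene table, so signal of both could not be told apart.

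CYP83A1, the P450 that acts on the aldoxime, had signals of 1002, 1086 and 1095 after silwet at 4 h. With SA they were 423, 486 and 763, all lower, and again highest in replicate 3. Its log2 change of -0.98 ± 0.31, to 50.9% of silwet, was not called (adjusted p = 0.160). The 28 h signals were 524, 1347 and 1369 after silwet and 889, 1125 and 1225 after SA. Silwet replicate 1 at 28 h was low for this gene as for MAM1. At 52 h silwet gave 1678, 1278 and 1453 and SA gave 1223, 1339.9 and 1674.

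UGT74B1 and UGT74C1 are glucosyltransferases that add the sugar to the core; the second is tied to the aliphatic branch. UGT74C1 read 285, 187 and 203 after silwet at 4 h, and 62.2, 52.7 and 63.5 after SA. The SA arrays lay close together, and they stood at 21.8%, 28.2% and 31.3% of their same-numbered silwet arrays. UGT74C1 fell by 1.90 on the log2 scale (SE 0.30; adjusted p = 0.0107), and 54 of the 15212 probe sets had a change as low or lower. At 28 h its signals were 127.3, 259 and 266 after silwet and 160.8, 227 and 227 after SA. The 52 h arrays gave 256, 256 and 265 after silwet and 166, 339 and 204 after SA, where SA spread far more widely than silwet.

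UGT74B1 read 96.4, 62.2 and 84.2 after silwet at 4 h and 52.1, 45.2 and 69.3 after SA. This was the only one of the 7 whose groups overlapped, since SA replicate 3 exceeded silwet replicate 2. Its log2 change was -0.54 ± 0.29 (68.7% of silwet), and was not called (adjusted p = 0.487). Signals at 28 h were 45.2, 84.0 and 61.4 after silwet and 53.0, 57.1 and 90.5 after SA. Those at 52 h were 53.4, 70.6 and 70.3 after silwet and 47.4, 51.2 and 79.5 after SA, with no order between the treatments at either time.

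MYB28, the main activator of the aliphatic branch, read 229, 197 and 139 after silwet at 4 h. After SA it read 79.9, 68.9 and 82.0, and the highest SA array was well below the lowest silwet array. MYB28 fell by 1.27 on the log2 scale (SE 0.23; adjusted p = 0.0164). At 28 h it read 219, 227 and 229 after silwet and 296, 195 and 196 after SA. At 52 h it read 312, 215 and 249.8 after silwet and 241, 238 and 290.0 after SA, again overlapping.

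Of the 7 genes, 2 were called lower at 4 h, where 0.322% of all probe sets tested were called lower. Signals of 6 did not overlap between treatments, with SA below silwet (10% of all tested), and all 7 were lower in every same-numbered pair of arrays (30.6%). The median change of the 7 was -1.21, beside -0.09 over all probe sets tested. Because the 7 were chosen with earlier results of these data known, their standing beside all probe sets is a description. Same-numbered arrays deviated together at each time, and with the replicate number as a block 6 were called lower (3.66% of all tested). BCAT4 (limma adjusted p = 0.0083), MAM1 (0.0073), CYP79F1 (0.0102) and CYP83A1 (0.0254) then passed as well, and UGT74B1 (0.192) did not. Without the block, UGT74C1 missed the threshold when silwet 4 h replicate 1 (adjusted p = 0.0729) or SA 4 h replicate 2 (0.0511) was left out. MYB28 missed it without silwet 4 h replicate 1 (0.111) or 2 (0.0853), or SA 4 h replicate 2 (0.0867) or 3 (0.0576). None of the 7 was called without silwet 4 h replicate 1 (0.0329% of all tested called lower) or SA 4 h replicate 2 (0.0657%). MAM1 (0.0140) and CYP83A1 (0.0298) passed without silwet 28 h replicate 1, the array on which they were low. When only the 6 arrays of the 4 h groups were fitted, 0 were called (0.0131% of all tested were called lower). The 2 calls were thus not made without the arrays of the other groups, and the reason was not tested.

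**Figure D2:**
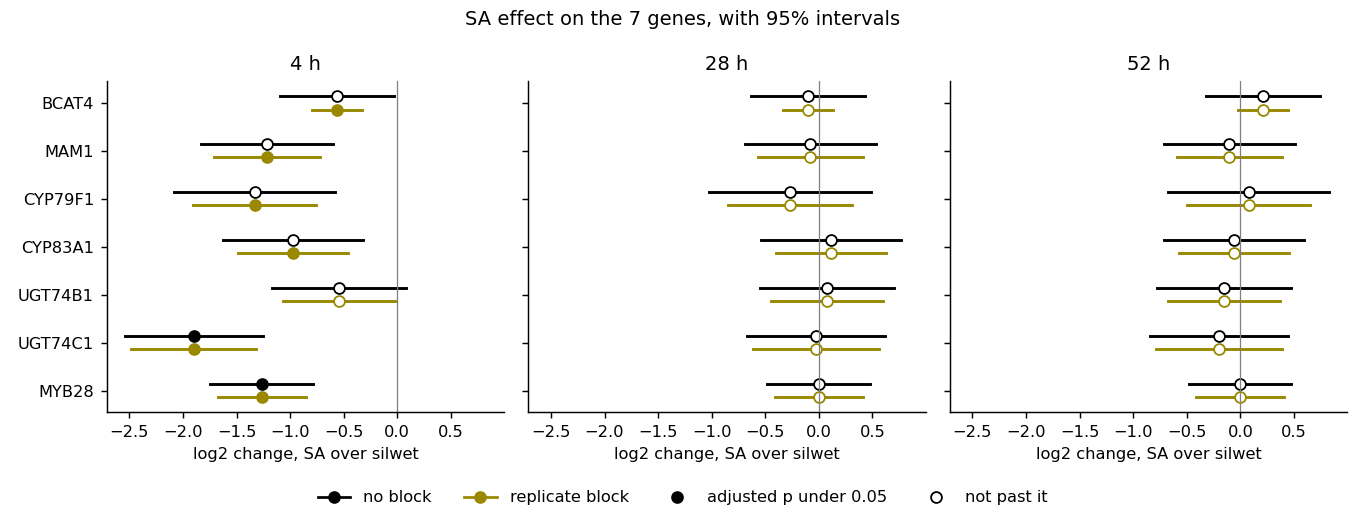
Log2 change of SA over silwet at 4, 28 and 52 h for each gene, with 95% intervals, without a block in black and with the replicate number as a block in olive; filled points passed the threshold. At 4 h 2 genes passed without the block and 6 with it, and at 28 and 52 h none did.

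The 3' to 5' control ratio at 4 h was 1.96, 2.65 and 1.5 after SA and 2.26, 1.40 and 1.29 after silwet, so it was higher after SA in replicates 2 and 3 and lower in replicate 1. With this ratio as a covariate, UGT74C1 (-1.78) and MYB28 (-1.32) remained called, where 0.684% of all tested were called lower. The median of the 7 was then -1.01. With the ratio and the block together, 5 were called (3.03% of all tested were called lower). Of the other-cell markers at 4 h, the log2 changes were -0.47 for FMA, a myrosin and guard cell regulator, -0.07 for the phloem sucrose exporter SWEET11 and -0.19 for RCA, and none was called. The part of these markers in the changes of the 7 genes was not tested.

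**Figure D3:**
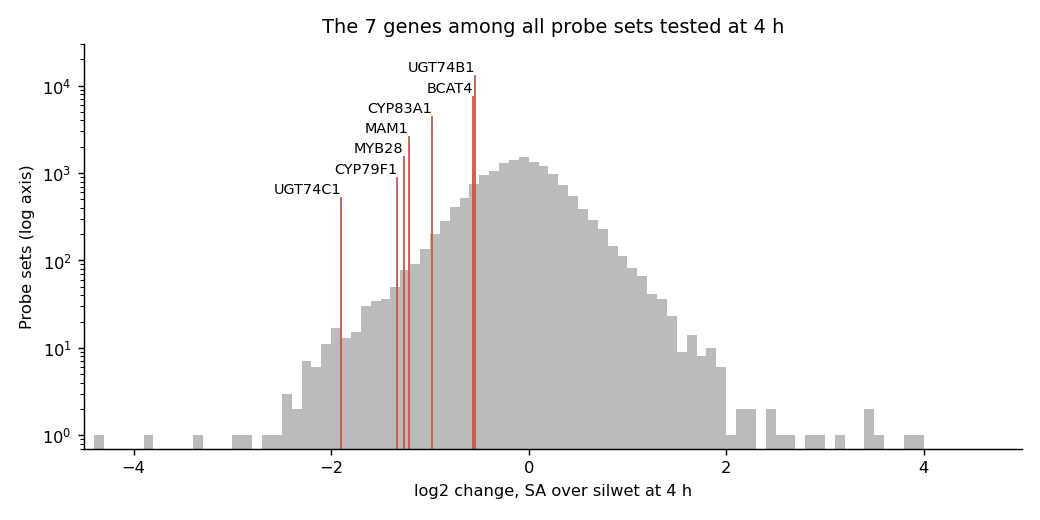
Number of probe sets (log axis) by log2 change of SA over silwet at 4 h, for all 15212 tested, with the 7 genes as red lines. The genes lie between -0.54 for UGT74B1 and -1.90 for UGT74C1, all on the lower side.

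At 28 h the log2 changes with SA lay between -0.27 (CYP79F1) and 0.11 (CYP83A1), and at 52 h between -0.20 (UGT74C1) and 0.21 (BCAT4). None of the 7 was called at either time, where the share of all probe sets called was 0% at 28 h and 0% at 52 h. Of the 7, 0 had an unadjusted limma p under 0.05, a level at which the share of all is not given here. None had groups apart, beside 2.26% and 6.33% of all tested. The 95% interval for UGT74C1 was -0.67 to 0.62 at 28 h and -0.84 to 0.44 at 52 h, and for MYB28 it was -0.48 to 0.48 at both. For CYP79F1 the interval at 28 h reached from -1.02 to 0.48. Changes of such sizes were therefore not excluded by these intervals. BCAT4 was higher after SA in all 3 same-numbered pairs at 52 h, as were 10.2% of all probe sets tested.

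Whether the SA effect at 4 h differed from that at a later time was tested directly. The difference of log2 effects, later minus 4 h, was above 0 for all 7 genes at both later times, from 0.46 (BCAT4) to 1.87 (UGT74C1) at 28 h and from 0.39 (UGT74B1) to 1.70 (UGT74C1) at 52 h. MYB28 had differences of 1.27 ± 0.32 (SE) at 28 h and 1.26 ± 0.32 at 52 h. No gene was called without a replicate block, where 0.00657% of all probe sets were called higher at 28 h and 0.00657% at 52 h. An unadjusted limma p under 0.05 was found for 4 genes at 28 h and 5 at 52 h. The share of all probe sets at that unadjusted level is not given here, so these 2 counts have no background beside them. The adjusted p-values of UGT74C1 were 0.218 and 0.291 and those of MYB28 0.260 and 0.291. Both comparisons share the 4 h arrays with the SA effect at 4 h, so their direction is no separate evidence.

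In SA-treated plants, 5 of the 7 genes rose from 4 to 28 h, and 5.39% of all probe sets tested were called higher. CYP79F1 rose 3.44-fold (log2 1.78 ± 0.36, adjusted p = 0.0042), UGT74C1 3.41-fold (1.77 ± 0.30, 0.0016) and MYB28 2.93-fold (1.55 ± 0.23, 0.00056). MAM1 rose 2.01-fold (1.01 ± 0.29, 0.0327) and CYP83A1 1.98-fold (0.99 ± 0.31, 0.0474). BCAT4 (0.55 ± 0.25, 0.188) and UGT74B1 (0.25 ± 0.29, 0.690) were not called. The 5 that rose were also the 5 whose groups did not overlap (13.2% of all tested). All 7 were higher at 28 h in every same-numbered pair, for which the share of all probe sets is not given here. Fewer were called, 3, when SA 4 h replicate 1 or 2 or SA 28 h replicate 2 or 3 was left out. Of all probe sets, 6.44%, 3.22%, 2.32% and 3.68% were called higher in these fits, in that order. MAM1 then had adjusted p between 0.0938 and 0.129, and CYP83A1 missed the threshold without any of 14 of the 18 arrays (adjusted p 0.0524 to 0.146). This comparison uses the same SA 4 h arrays as the effect at 4 h.

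After silwet alone, none of the 7 was called between 4 and 28 h (0.605% of all tested) and none had groups apart (11.8%). Their median change was -0.10, and it turned above 0 without silwet 4 h replicate 1 (0.083) or silwet 28 h replicate 1 (0.25). CYP79F1 had 0.72 ± 0.36 (adjusted p = 0.606), from 0.33 without silwet 4 h replicate 2 to 1.05 without silwet 4 h replicate 1, with signals of 34.6 to 95.1 at 4 h and 82.6 to 110.1 at 28 h. From 28 to 52 h all 7 silwet means were higher on the log2 scale, with a median of 0.33, but 0 were called (0% of all tested) and 0 had groups apart (5.82%). One low array carried much of this: the median was 0.15 without silwet 28 h replicate 1, and 0.0025 without all replicate 1 arrays. In same-numbered pairs, MAM1, CYP79F1 and CYP83A1 differed by 1.57, 1.23 and 1.68 in replicate 1, and by -0.06, -0.29 and -0.08 in replicate 2. Silwet 28 h replicate 1 had a 3' to 5' log2 control ratio of 2.21, beside 1.35 and 1.69 in its group, and a median signal of 26.7, beside 33.1 and 35.6. In a fit with the ratio as a covariate, 0% of all tested were called from 28 to 52 h after silwet, so none of the 7 was. Their median stayed between 0.0025 and 0.50 in all 33 alternatives, that fit among them. The cause of the low signals on silwet 28 h replicate 1 was not tested. From 28 to 52 h after SA the median was 0.38, again with 0 called (0%). MAM1 and CYP79F1 had no overlap there, with 52 h above 28 h (2.02% of all tested).

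The replicates differed in a way that varied between the genes. Within groups, MAM1 and CYP83A1 moved together over the 18 arrays (r = 0.96 of deviations from group means). BCAT4 and CYP83A1 had r = -0.53. With the means of the replicate numbers also removed these values were 0.97 and -0.08, so the opposite movement of BCAT4 and CYP83A1 went with the replicate number. Over the 21 pairs of genes the median was 0.39 and 15 were above 0. BCAT4 was highest in replicate 1 in 6 of 6 groups, while CYP83A1 was lowest there in 5 of 6 and highest in replicate 3 in 5 of 6. MAM1 was highest in replicate 3 in 5 of 6. The log2 3' to 5' control ratio in replicate 1 was 2.26 and 2.21 after silwet at 4 and 28 h. It was 1.96, 2.01 and 2.04 after SA at 4, 28 and 52 h. In silwet 52 h it was 1.30, and there CYP83A1 was highest in replicate 1. BCAT4 was highest in replicate 1 there too, and the highest ratio, 2.65, was on SA 4 h replicate 2. The part of the ratio in these deviations was not tested. These are descriptions over arrays that share replicate numbers.

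**Figure D4:**
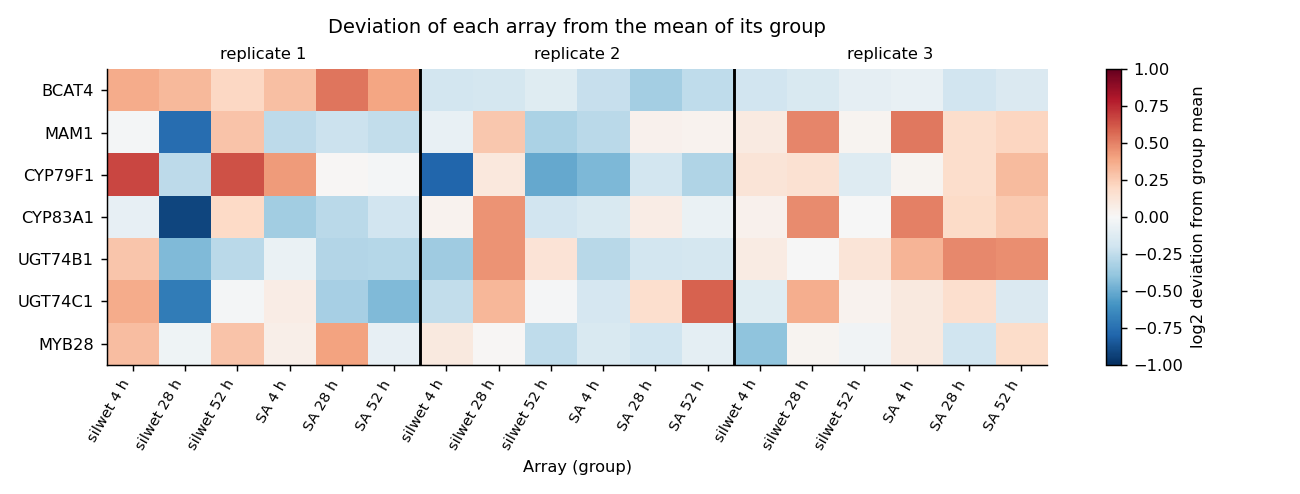
Log2 deviation of each array from the mean of its group, in rows for the 7 genes and columns for the 18 arrays ordered by replicate number. BCAT4 is above its group mean on all 6 replicate 1 arrays, and MAM1, CYP83A1, UGT74B1 and UGT74C1 are low together on silwet 28 h replicate 1.

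Other genes of the pathway were taken from a list of 60. The platform annotation names 11 of them, and 10 of those passed the filter, 3 among the 7 genes above. It names no gene of glucosinolate breakdown or of the indole branch, but such genes may have probe sets it does not list. MAM1, CYP79F1, CYP83A1 and MYB28 are likewise not named in it. Of the 7 others, 0 were called at 4 h (0.322% of all tested were called lower). Means of 6 were lower after SA, as were 58.7% of all tested, and the median log2 change was -0.28, beside -0.09 over all. The transporters that load glucosinolates into phloem and seeds, GTR1 (-0.77 ± 0.30, adjusted p = 0.279) and GTR2 (-0.57 ± 0.28, 0.428), had the lowest values. GTR1 signals averaged 285 ± 56.0 (SD, n = 3) after silwet and 173 ± 67.2 after SA. It was called with the replicate block (limma adjusted p = 0.0320), where 3.66% of all tested were called lower.

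GS-OH, the oxygenase that hydroxylates a side chain, had -0.28 ± 0.15, and GSTU20, a glutathione transferase placed in the core pathway, had -0.10 ± 0.29. The basic helix-loop-helix factors MYC3 and MYC4, partners of the MYB factors, had -0.08 ± 0.35 and -0.42 ± 0.54. MYC4 was dim, with group means from 11.6 to 17.4 beside filter levels of 16.0 to 20.7, and read 4.6 to 21.1 at 4 h after SA. SDI2, a sulphur-response protein that lowers aliphatic synthesis, was the exception in direction at 0.26 ± 0.22. From 4 to 28 h after SA, 1 of these 7 was called (5.39% of all tested were called higher), and it rose: GS-OH (0.60 ± 0.15, adjusted p = 0.0165), from 1263 ± 151 to 1904 ± 18.8 in signal. AOP3, a further side chain oxygenase, did not pass the filter, with signals between 0.7 and 11.8.

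**Figure D5:**
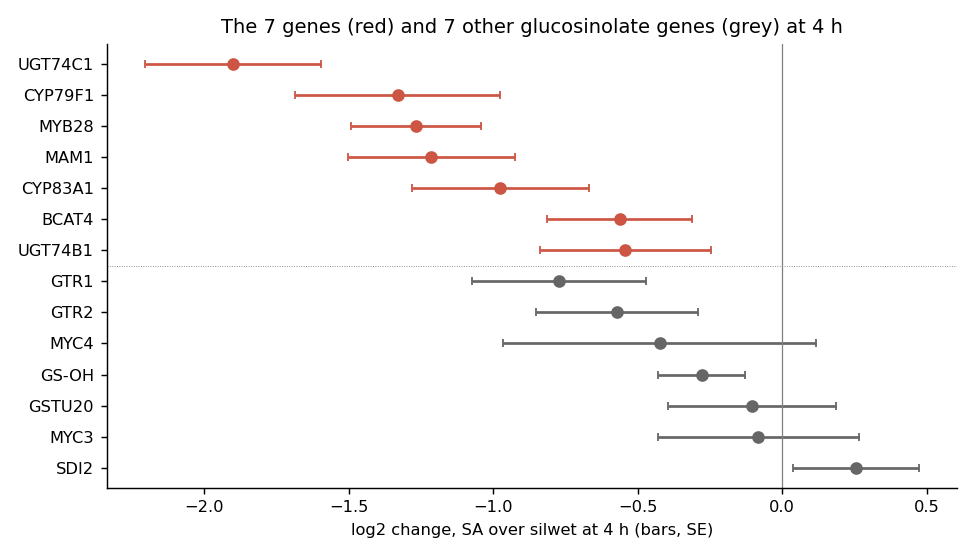
Log2 change of SA over silwet at 4 h for the 7 genes (red) and 7 other glucosinolate genes with a tested probe set (grey), with bars of 1 SE. The red genes run from -1.90 to -0.54, and the grey ones from -0.77 (GTR1) to 0.26 (SDI2).

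Among 8260 other named probe sets, the 5 whose log2 signals followed the mean of the 7 standardised genes most closely over the 18 arrays were AT1G10090 (r = 0.947), AT1G56230 (0.913), AT4G09670 (0.911), AT3G24760 (0.910) and AT4G38690 (0.905). They were chosen on the same 18 arrays, over which the mean of the 7 is lowest at 4 h after SA, so their low values there follow from the choice and are given as a description. AT1G10090 averaged 131 ± 31.0 there against 239.5 ± 35.3 after silwet (SD, n = 3). AT4G38690 averaged 27.8 ± 5.5 against 59.9 ± 5.7. Of the 7 genes themselves, MAM1 followed the mean of the other 6 most closely (r = 0.91) and UGT74B1 least (r = 0.29).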

How the data were processed

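Expression was read from 1 deposited table that holds a linear intensity for each probe set on each array. MAS5 is named in the submitters' processing notes, and its version and scaling target are not given in the sources used here. It subtracts background and summarises probe pairs, so dim probe sets scatter widely after a log. Detection calls were not part of the table. Intensities were converted to log2 with no offset and not normalized again. A probe set was kept if at least 3 arrays had it over their own 40th percentile. Without the 64 control probe sets, this kept 15212 of 22746. The model in limma 3.58.1 (R 4.3.3; lmFit, then eBayes with an intensity trend) had 6 group means over all 18 arrays. Each of 9 comparisons was adjusted by Benjamini-Hochberg across every probe set tested, and called under 0.05. The fit was tested on simulated data. There the mean estimate of 1 set of noisy genes missed the tolerance first set, which was then replaced by one based on its standard error. No 2 arrays were identical.

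The members and lists were chosen with earlier results of these data known. The 7 genes are always named, as is any listed pathway gene with a 1-gene probe set. The 5 likeness genes are those with the highest Pearson correlation with the 7, listed genes left out. Of 14016 probe sets in the platform annotation, 13513 have 1 gene and 503 several, and 13436 of the former matched the TAIR10.1 gene table. It names 3 of the 7 (BCAT4, UGT74B1 and UGT74C1, there AT2G31790). MAM1, CYP79F1, CYP83A1 and MYB28 are named by the choice of members alone. Coordinates are left out because the array's build is not named, and no sequence is shown.

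Replicate numbers come from the labels. Deviations of same-numbered arrays from group means correlated above 0.1 in all 3 pairs between treatments at 4 h (0.18 to 0.71), 28 h (0.61 to 0.82) and 52 h (0.20 to 0.36). The same held between times after silwet and for SA between 28 and 52 h, but in 2 of 3 pairs for SA between 4 and 28 h. The 33 alternatives covered a replicate block, quantile normalization, median centring, an offset (20th percentile), other filters (none, or the 60th percentile), no trend, array weights, fitting only the arrays compared, the control ratio of 3' to 5' signal, and leaving out each array or replicate number. A blocked fit lacking SA 4 h replicate 2 and a blocked fit with the ratio were added after seeing the data. Plots used matplotlib 3.10.9 (Python 3.11.15).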

Additional observations from a re-analysis of the deposited data

Results flagged for a closer look

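BCAT4 was lower after SA in all 3 same-numbered pairs at 4 h and higher in all 3 at 52 h, which singled it out. The difference between the log2 effects, 52 h minus 4 h, was 0.77 ± 0.35 (SE), and its limma adjusted p of 0.795 without a replicate block did not pass. The value with the block, which did, stands with the other blocked fits under the processing.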

How the results depend on the processing

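The median log2 change of the 7 genes at 4 h stayed between -1.31 and -1.01 in all 33 alternatives, and no single gene changed direction at 4 h when arrays or replicate numbers were left out. The number called did depend on the setting. At 4 h (2 as reported) it was 6 with the replicate block, 1 with median centring, 4 with array weights and 0 with only the arrays compared, where 3.66%, 0.164%, 3.17% and 0.0131% of all probe sets were called lower (0.322% as reported). With SA 4 h replicate 2 left out of the blocked fit it was 5 (1.28% of all), and 5 with the block and the 3' over 5' ratio (3.03%). With median centring MYB28 missed the threshold (adjusted p = 0.0558), and with only the arrays compared UGT74C1 (0.0625) and MYB28 (0.141) did. With the filter at the 60th percentile MAM1 passed (limma adjusted p = 0.0486), where 0.674% of all tested were called lower. Leaving out an array or a replicate number gave 0 to 4. It was 0 without replicate 2 (0% of all), 0 without replicate 3 (0.00657%) and 4 without silwet 28 h replicate 1 (0.684%). It was also 0 without the single array silwet 4 h replicate 1 (0.0329%) or SA 4 h replicate 2 (0.0657%).

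For SA between 28 and 4 h (5 as reported), only the arrays compared gave 3 (1.76% of all called higher, beside 5.39%), the block 6 (13.2%), and leaving out arrays or numbers 0 (without replicate 2, 0.0197%) to 6 (without replicate 1, 13.4%). In these fits the count of the 7 and the share over all moved the same way, but not in every fit. Without SA 4 h replicate 1, 3 of the 7 were called while 6.44% of all were called higher. CYP83A1 also missed the threshold with quantile normalization (limma adjusted p = 0.0753), no filter (0.0697), no intensity trend (0.0619) and the ratio as a covariate (0.0659). With that covariate BCAT4 passed (0.0303). The labels do not say what same-numbered arrays shared. Between SA at 28 and 4 h 2 of 3 such pairs correlated above 0.1. In the differences of SA effects 16 of 18 did at each later time. Those differences (0 as reported) gave with the block 2 called at 28 h, UGT74C1 (adjusted p = 0.0394) and MYB28 (0.0471), and 2 at 52 h, BCAT4 (0.0326) and MYB28 (0.0438), where 0.401% and 0.388% of all were called higher. They gave 1 and 2 with array weights (0.177% and 0.21% of all called higher), and 2 at 52 h with the block and the ratio (0.473%). For silwet between 28 and 4 h, array weights gave 1, CYP79F1 (log2 1.30, adjusted p = 0.0254; 1.39% of all called higher). The median there ran from -0.31 to 0.32 and CYP79F1 from 0.27 to 1.18 when arrays or numbers were left out, and the median from 28 to 52 h from 0.0025 to 0.50. The block changed no other count of called genes by more than 1.5 times.

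Uncalled changes near 0 turned sign. At 28 h array weights gave CYP83A1 -0.16 and UGT74B1 -0.030, and the ratio as a covariate gave MYB28 0.017. At 52 h array weights gave MAM1 0.025, CYP83A1 0.0076, UGT74C1 0.032 and MYB28 0.054. Median centring gave CYP83A1 0.013 and MYB28 0.071, quantile normalization MYB28 0.0013, the ratio CYP83A1 0.054, and the block with the ratio CYP83A1 0.013 and MYB28 0.011. Leaving out arrays or numbers gave at 28 h BCAT4 -0.37 to 0.068, MAM1 -0.46 to 0.17, CYP83A1 -0.34 to 0.35, UGT74B1 -0.16 to 0.39, UGT74C1 -0.38 to 0.16 and MYB28 -0.22 to 0.11. At 52 h it gave MAM1 -0.28 to 0.16, CYP79F1 -0.18 to 0.40, CYP83A1 -0.19 to 0.14, UGT74B1 -0.38 to 0.0020, UGT74C1 -0.50 to 0.023 and MYB28 -0.13 to 0.18. The cause of these shifts was not tested. Signal over background limits CYP79F1 most, since 1 SA 4 h array lay under its filter level.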
